A study of Homo sapiens with 14 samples.

Results

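The libraries described here set a genetic loss of TET2 directly against a TET inhibitor in K562 cells, without the untreated control between them. K562 is an established human erythroleukaemia line. K18 is a TET2-/- K562 clone that received the solvent DMSO, and it was compared with K01, the TET2+/+ K562 clone of the series, after 12.5 µM TETi76, a compound that the series title and sample names present as a TET dioxygenase inhibitor. Both treatments lasted 24 h in cultures seeded at the same stated density, and polyadenylated RNA was sequenced. The comparison holds 4 libraries, 2 of each group, out of 10 K562 libraries and 14 libraries in all; they were taken by their sample labels, and number-named and short-RNA entries of the expression matrix were left out. The remaining K562 groups were K01 given DMSO, 100 µM ascorbate, or TETi76 with ascorbate, and the other libraries came from the leukaemia line SIGM5 and were not used here. K18 and K01 TETi76 differ at once in TET2 genotype, in clone and in the compound received. Each genotype was 1 clone, so TET2 loss and other differences between the clones cannot be told apart. Replicates are numbered in the labels without word of separate cultures, and the p-values below therefore measure the spread of these libraries alone, which could be technical.

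TET enzymes are iron- and 2-oxoglutarate-dependent dioxygenases that oxidise 5-methylcytosine in DNA, a step toward the loss of methylation, and TET2 is often mutated in myeloid neoplasms. TET1 and TET3 are the other members of the family. Among stress programmes of leukaemia cells, the integrated stress response raises the translation of ATF4, which turns on genes of amino acid synthesis and import, and NRF2 (gene NFE2L2) turns on genes of glutathione, thioredoxin and detoxification when its inhibitor KEAP1 is modified. K562 cells carry the BCR-ABL fusion kinase and make embryonic and fetal globins.

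Expression was deposited as FPKM, reads or fragments scaled to transcript length and to library size. The estimated depth of the 4 libraries, read from the size of the smallest steps in FPKM, was 7.73 and 8.87 M reads in K18, against 7.2 and 7.53 M reads in TETi76-treated K01 (M, mega), an approximation that assumes GENCODE transcript lengths and left 54.4% to 60.7% of the low values used within 0.1 of a whole read. Pearson correlations over the genes tested, on the log2(FPKM + 1) scale, were 0.9875 between the K18 libraries and 0.9816 between the TETi76 libraries, and 0.9449 to 0.9459 between libraries of different groups. In bulk RNA, fewer cells of a type and less RNA per cell cannot be told apart. Erythroid genes of K562 were present in both groups, globins included: GATA1, the master regulator of the lineage, had 169 and 189.9 FPKM in K18, against 138 and 129 FPKM in TETi76-treated K01. CD34 was listed at 0 in all 4 libraries, and PF4, CD14, MS4A1 and CDH5, markers of platelets, monocytes, B cells and endothelium, were under the level needed for testing.

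Testing covered 12533 genes that reached 1 FPKM in 2 or more of the 10 K562 libraries, and 3511 of them (28.0%) differed between K18 and TETi76-treated K01 at an adjusted p under 0.05 in limma. Levels were higher in K18 for 1933 genes (15.4%) and lower for 1578 (12.6%). That balance depended on the scaling: quantile scaling gave 1787 higher and 1854 lower, and scaling to equal sums 2111 higher and 1427 lower. The unscaled shares, 15.4% higher and 12.6% lower, are the background for each list count below. A difference of at least 2-fold was seen for 575 called genes higher in K18 (4.59%) and 287 lower (2.29%), and at least 4-fold for 110 higher and 46 lower. All differences below are K18 minus TETi76-treated K01 on the log2(FPKM + 1) scale, so a positive value is higher in K18; the scale understates the change of genes near 1 FPKM. The median difference over all genes tested was 0.0028, and the median absolute difference 0.29. The libraries of the 2 groups did not overlap in 8254 of the 12533 genes (65.9%), so a lack of overlap alone says little. For 9122 genes (72.8%) the 95% confidence interval of the difference lay within 2-fold either way. The number of called genes depended on having both replicates of each group: it was 2061 and 2026 without K18 replicate 1 or 2, and 2358 and 2346 without TETi76 replicate 1 or 2.

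**Figure D1:**
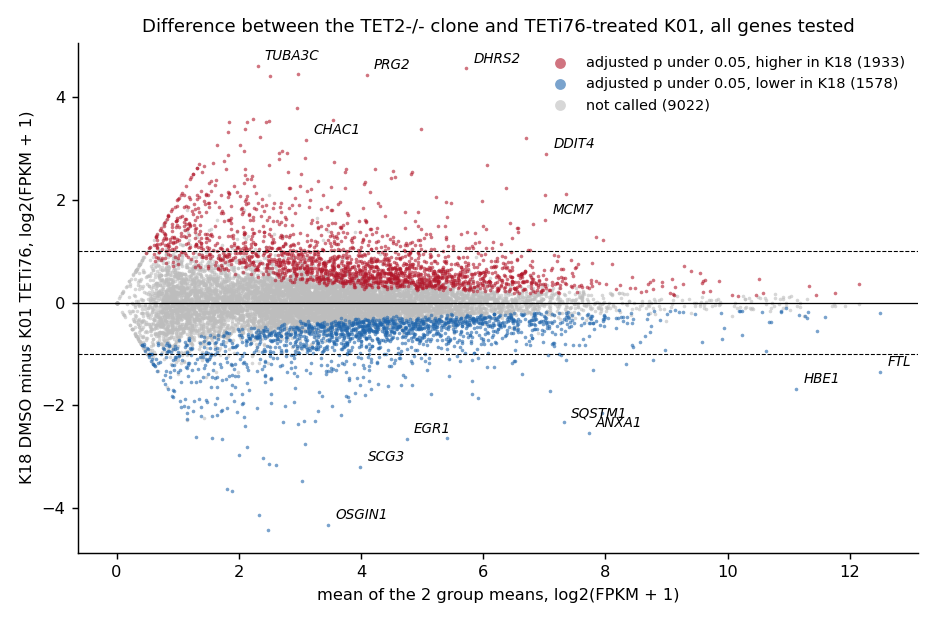
Difference between K18 given DMSO and K01 given TETi76 (vertical axis, log2(FPKM + 1)) against the mean level of the 2 groups (horizontal axis, same scale) for 12533 genes. Red points (1933) are higher and blue points (1578) lower in K18 at an adjusted p under 0.05, grey points (9022) were not called, and dashed lines mark a 2-fold difference; OSGIN1 lies among the lowest points and DHRS2 among the highest.

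RNA levels of the TET genes differed by 0.53 or less. TET2 RNA was still present in the TET2-/- clone: TET2 stood at 3.31 and 2.95 FPKM in K18, against 1.80 and 1.90 FPKM in TETi76-treated K01. The K18 libraries were the higher ones without overlap, but the difference was not called (0.53 ± 0.22 SE, 95% confidence interval 0.03 to 1.03, limma adjusted p = 0.108), and RNA abundance cannot check a mutation that spares the message. TET1 had 5.88 and 6.19 FPKM in K18, against 4.16 and 4.25 FPKM in TETi76-treated K01, a difference of 0.43 (adjusted p = 0.035) that lost its call when any 1 of the 4 libraries was left out (adjusted p of 0.101 to 0.161). For TET3 the values were 6.02 and 6.70 FPKM in K18, against 5.83 and 5.48 FPKM in TETi76-treated K01, with no overlap and a difference of 0.14 that was not called (95% confidence interval -0.20 to 0.49, adjusted p = 0.526). Of 19 genes of TET, DNA methylation and 2-oxoglutarate supply, all tested, 7 were higher in K18 and 2 lower, with a median difference of 0.14. Leaving out any 1 of the 4 libraries took the higher ones to 3 or 4 and the lower ones to 1.

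Isocitrate dehydrogenases make 2-oxoglutarate, the co-substrate of TET enzymes, and IDH1 and IDH2 gave the largest differences of that list. The other isocitrate dehydrogenase genes on it, IDH3A, IDH3B and IDH3G, were not called. IDH1, the cytosolic enzyme, had 80.6 and 69.7 FPKM in K18, against 23.3 and 22.6 FPKM in TETi76-treated K01. IDH2, the mitochondrial enzyme, had 64.5 and 66.9 FPKM in K18, against 29.8 and 30.7 FPKM in TETi76-treated K01. Both were higher in K18 in every library, by 1.66 ± 0.09 and 1.10 ± 0.08 (SE; adjusted p = 2.61e-06 and 2.10e-05). In K01 DMSO libraries, which enter the fit but neither side of the difference, IDH1 averaged 80.9 FPKM and IDH2 62.6 FPKM, near the K18 levels. DNMT3B, a de novo DNA methyltransferase, went the other way, with 19.9 and 19.7 FPKM in K18, against 37.5 and 36.3 FPKM in TETi76-treated K01 (difference -0.86, adjusted p = 7.61e-05) and 26.9 FPKM in K01 DMSO, between the groups.

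The genes with the largest differences were low in one group. DHRS2, a short-chain dehydrogenase of mitochondria and nucleus, had 254 and 257 FPKM in K18, against 8.95 and 10.8 FPKM in TETi76-treated K01, a ratio of 25.9 (log2 difference 4.56 ± 0.12, adjusted p = 4.85e-08). PRG2, the major basic protein of eosinophil granules, had 77.4 and 79.9 FPKM in K18, against 2.36 and 3.02 FPKM in TETi76-treated K01. KIT, the receptor of stem cell factor, had 10.1 and 12.4 FPKM in K18, against 0.133 and 0 FPKM in TETi76-treated K01. Genes of largest difference were named only where the 2 groups did not overlap, so that separation is no further result. ALOX5, which makes leukotrienes, had 14.7 and 12.9 FPKM in K18, against 0.0603 and 0.582 FPKM in TETi76-treated K01, and PRF1, the pore protein of cytotoxic granules, had 18.5 and 17.8 FPKM in K18, against 0.572 and 0.718 FPKM in TETi76-treated K01.

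Germline genes filled the rest of the upper end. TUBA3C, a testis tubulin with a near-identical paralog that the authors' counting could mix with it, had 24.1 and 22.9 FPKM in K18 and was listed at 0 in both TETi76 libraries. SSX3, AURKC, PASD1, TEX19 and ACTL8 are expressed chiefly in germ cells or tumours. SSX3 had 34.6 and 36.9 FPKM in K18, against 1.54 and 0.114 FPKM in TETi76-treated K01, although SSX genes resemble each other closely. AURKC, the meiotic aurora kinase, had 38.1 and 39.8 FPKM in K18, against 2.90 and 1.95 FPKM in TETi76-treated K01. ACTL8, an actin-like protein, had 25.0 and 25.7 FPKM in K18, against 0.159 and 0.307 FPKM in TETi76-treated K01. Over the genes drawn in the left panel of the plot of largest differences, the highest K01 DMSO mean was that of DHRS2, at 15.0 FPKM.

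At the lower end, 2 kinds of gene stood side by side. PTPRC (CD45), the leukocyte phosphatase, had 0.0258 and 0.0452 FPKM in K18, against 12.1 and 12.4 FPKM in TETi76-treated K01. CTAG2, a cancer-testis antigen, had 0.437 and 0 FPKM in K18, against 17.3 and 23.6 FPKM in TETi76-treated K01. Both were near 0 in K18 and above 12 FPKM in the TETi76 libraries, and in K01 DMSO they averaged 15.2 and 20.6 FPKM. CALB1 (calbindin), SCG3 (a secretory granule protein), ABRACL, POPDC3 and LDOC1 shared that order, with K01 DMSO means of 21.3, 106, 11.9, 7.85 and 11.7 FPKM.

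The other lower genes were high in the TETi76 libraries alone among these 3 groups. OSGIN1, an NRF2-induced growth inhibitor, had 1.69 and 1.23 FPKM in K18, against 46.7 and 49.7 FPKM in TETi76-treated K01, and averaged 2.85 FPKM in K01 DMSO. LUCAT1, a stress-induced long noncoding RNA, was listed at 0 in both K18 libraries and in both K01 DMSO libraries, and had 12.5 and 10.3 FPKM in TETi76-treated K01. GADD45B, a stress gene of growth arrest, had 0.418 and 1.55 FPKM in K18, against 14.4 and 17.2 FPKM in TETi76-treated K01, with 1.65 FPKM in K01 DMSO. UPP1, uridine phosphorylase, had 0.973 and 0.706 FPKM in K18, against 17.8 and 11.05 FPKM in TETi76-treated K01, with 1.31 FPKM in K01 DMSO. Over all called genes of at least 2-fold, the K01 DMSO mean was nearer K18 for 238 of the 575 higher genes and nearer TETi76-treated K01 for 337, and nearer K18 for 160 of the 287 lower genes and nearer TETi76-treated K01 for 127. This is a description of position with no test.

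**Figure D2:**
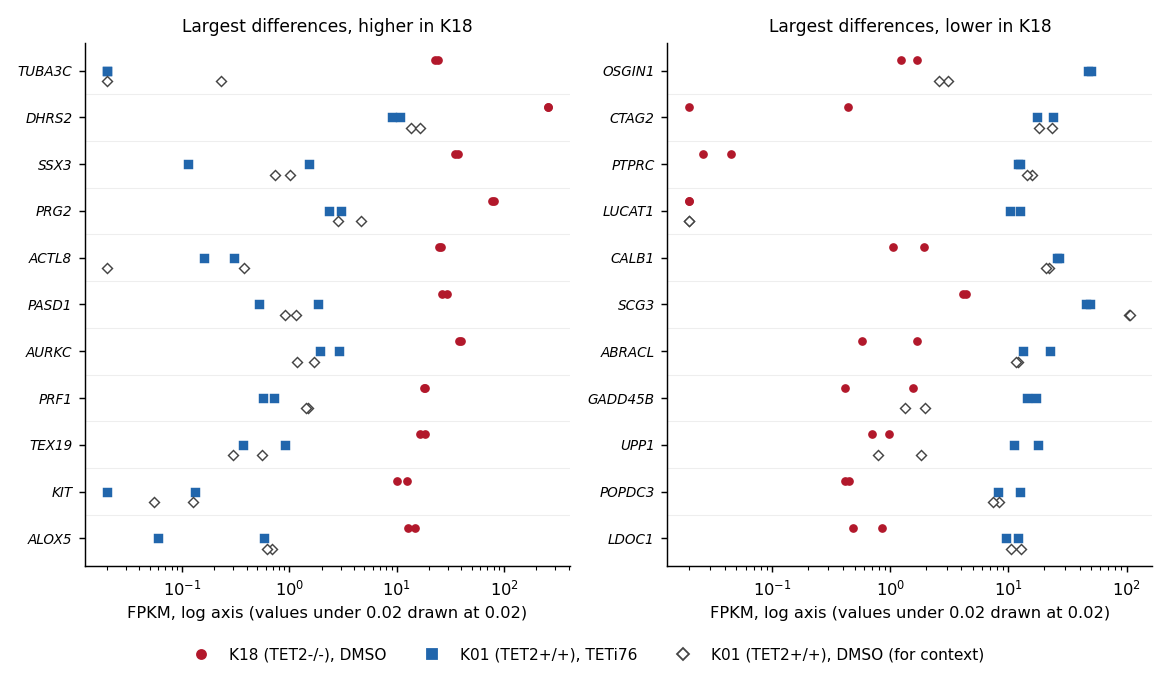
FPKM of every library (log axis; values under 0.02 are drawn at 0.02) for 11 of the genes with the largest called difference in each direction, with K18 DMSO (red circles) above K01 TETi76 (blue squares) and K01 DMSO (open diamonds) in each row. In the left panel the open diamonds lie near the blue squares for PRG2, SSX3 and AURKC; in the right panel they lie with the blue squares for PTPRC and CALB1 and with the red circles for LUCAT1, OSGIN1, GADD45B and UPP1.

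Targets of the integrated stress response were higher in K18 with 1 exception. Of 23 tested targets (2 were below the filter), 22 were higher in K18, 18 of them by at least 2-fold, and 0 were lower, against 15.4% higher and 12.6% lower over all genes; the median difference was 1.45. CHAC1, a glutathione-degrading enzyme and a sensitive ATF4 target, had 24.0 and 25.4 FPKM in K18, against 2.16 and 1.56 FPKM in TETi76-treated K01. DDIT4, an inhibitor of the mTOR pathway, had 347 and 364 FPKM in K18, against 46.8 and 46.5 FPKM in TETi76-treated K01. Both genes were higher in both K18 libraries than in either TETi76 library. Their differences were 3.18 ± 0.17 and 2.90 ± 0.10 (adjusted p = 3.33e-06 and 1.76e-07), and INHBE, an activin subunit, followed with 2.91.

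Enzymes of serine, cysteine and one-carbon metabolism were among the called members. PSAT1, a step of serine synthesis, had 87.3 and 76.8 FPKM in K18, against 19.5 and 20.9 FPKM in TETi76-treated K01. MTHFD2, a mitochondrial folate enzyme, had 162 and 151 FPKM in K18, against 56.0 and 57.2 FPKM in TETi76-treated K01. Cysteine synthesis was represented by CTH, with 23.3 and 24.7 FPKM in K18, against 3.73 and 4.79 FPKM in TETi76-treated K01, and CBS, with 149 and 145 FPKM in K18, against 53.01 and 46.3 FPKM in TETi76-treated K01. ASNS, asparagine synthetase, had 157 and 149 FPKM in K18, against 59.2 and 56.8 FPKM in TETi76-treated K01, a difference of 1.38 (adjusted p = 2.65e-06). ATF4 itself was higher by less, at 298 and 275 FPKM in K18, against 162 and 172 FPKM in TETi76-treated K01 (difference 0.77, adjusted p = 1.75e-05). ATF3, a stress factor that other pathways induce too, was the 1 tested member not called, with 19.4 and 17.6 FPKM in K18, against 21.3 and 23.9 FPKM in TETi76-treated K01 (difference -0.27, adjusted p = 0.0564; with quantile scaling it was called lower, adjusted p = 0.0377). The K01 DMSO mean was nearer K18 for 21 of the 22 higher members; CHAC1 averaged 39.7 and DDIT4 439 FPKM there, above both groups.

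Promoters of 2 of these genes are shown because they hold the letters of the C/EBP-ATF response element, to which ATF4 dimers bind. The sequences are the RefSeq windows of GRCh38.p14 from 250 bases before to 50 after the start, 5′ to 3′ on the gene's strand, with the match to TGATGNAAN or its reverse complement in capitals. CHAC1 lies at chr15:40953221-40953520 on the plus strand, and ASNS at chr7:97872359-97872658 on the minus strand; the submitters' processing notes name hg19 for the expression values, and no position was carried between the builds.
CHAC1: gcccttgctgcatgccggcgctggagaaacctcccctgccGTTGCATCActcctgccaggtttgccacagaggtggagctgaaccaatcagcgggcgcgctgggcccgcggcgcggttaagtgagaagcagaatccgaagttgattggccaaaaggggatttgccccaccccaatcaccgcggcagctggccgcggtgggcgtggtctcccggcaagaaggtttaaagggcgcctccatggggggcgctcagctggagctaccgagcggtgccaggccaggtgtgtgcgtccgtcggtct
ASNS: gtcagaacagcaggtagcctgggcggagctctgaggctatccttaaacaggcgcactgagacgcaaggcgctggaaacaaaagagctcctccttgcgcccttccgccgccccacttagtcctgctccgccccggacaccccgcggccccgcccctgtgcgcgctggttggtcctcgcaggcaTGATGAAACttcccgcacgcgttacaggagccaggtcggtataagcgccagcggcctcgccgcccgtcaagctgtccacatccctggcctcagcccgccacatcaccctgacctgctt
The match was found in 4 of the 20 list promoters that had a window, those of CHAC1, ASNS, ATF3 and FGF21, against 3.67% of 27305 promoters and 1.68% of the 9894 windows of tested genes. It was present in 4.14% of 411 windows of genes at least 2-fold higher in K18 and in 3.18% of 220 windows of genes at least 2-fold lower. Sites of C/EBP factors can overlap these letters and were not searched. A match is a description of letters, and ATF3, which holds one, was not called.

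Amino acid transporters and cytosolic aminoacyl-tRNA synthetases, further ATF4-regulated groups, were higher in K18 where they were called, except for 1 transporter. Of 12 tested transporters (SLC7A3 was below the filter), 8 were higher and 1 lower, with a median difference of 0.81. SLC1A4, a carrier of alanine, serine and cysteine, had 15.6 and 15.8 FPKM in K18, against 6.33 and 6.03 FPKM in TETi76-treated K01. SLC7A5, the large neutral amino acid exchanger, had 94.0 and 98.1 FPKM in K18, against 57.3 and 51.5 FPKM in TETi76-treated K01. SLC3A2, its heavy-chain partner, was the 1 lower member, with 118 and 124 FPKM in K18, against 207 and 219 FPKM in TETi76-treated K01 (difference -0.81, adjusted p = 4.09e-05). SLC7A11, the cystine importer, is a target of both ATF4 and NRF2 and had 9.06 and 8.96 FPKM in K18, against 5.24 and 4.33 FPKM in TETi76-treated K01 (difference 0.80, adjusted p = 0.00231). Of 20 synthetases, 12 were higher, 0 lower, and the median difference was 0.32; the largest values were those of CARS (0.94), WARS (0.91) and AARS (0.81), which charge cysteine, tryptophan and alanine tRNAs. In each of these genes except SLC3A2 the K01 DMSO mean was nearer K18.

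NRF2 targets that were called showed the opposite order. Of 24 tested (HMOX1 and ABCC2 were below the filter), 18 were lower in K18, 9 by at least 2-fold, and 0 were higher (1 with scaling to equal sums), with a median difference of -0.80. SQSTM1 (p62), the autophagy receptor that also binds KEAP1, had 68.9 and 71.1 FPKM in K18, against 359 and 356 FPKM in TETi76-treated K01. AKR1C1, an aldo-keto reductase, had 16.6 and 15.4 FPKM in K18, against 98.6 and 112 FPKM in TETi76-treated K01. NQO1, the quinone reductase, had 28.3 and 32.9 FPKM in K18, against 114 and 114 FPKM in TETi76-treated K01. In all 3 the TETi76 libraries were the higher without overlap, with differences of -2.34 ± 0.07, -2.64 ± 0.09 and -1.87 ± 0.09 (adjusted p = 1.40e-07, 1.40e-07 and 2.58e-06). Glutathione synthesis was represented by GCLM, the modifier subunit of glutamate-cysteine ligase, with 14.6 and 12.6 FPKM in K18, against 32.9 and 34.0 FPKM in TETi76-treated K01. The thioredoxin system was represented by TXNRD1, with 57.3 and 58.0 FPKM in K18, against 132 and 132 FPKM in TETi76-treated K01, and by PRDX1, a peroxiredoxin, with 582 and 587 FPKM in K18, against 1015 and 987 FPKM in TETi76-treated K01. The K01 DMSO mean was nearer K18 for 16 of the 18 lower members, at 56.4 FPKM for SQSTM1 and 26.9 FPKM for NQO1.

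The promoters of GCLM and TXNRD1 are shown because they hold the letters of the antioxidant response element, TGACNNNGC on either strand, to which NRF2 and its small MAF partners bind. They come from the same RefSeq windows of GRCh38.p14, GCLM at chr1:93909381-93909680 on the minus strand and TXNRD1 at chr12:104215529-104215828 on the plus strand, with matches in capitals.
GCLM: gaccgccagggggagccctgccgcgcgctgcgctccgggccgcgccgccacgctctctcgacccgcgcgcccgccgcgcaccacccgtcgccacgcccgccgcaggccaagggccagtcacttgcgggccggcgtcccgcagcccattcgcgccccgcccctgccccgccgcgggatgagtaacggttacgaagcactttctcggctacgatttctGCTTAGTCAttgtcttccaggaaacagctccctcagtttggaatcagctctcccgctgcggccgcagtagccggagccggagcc
TXNRD1: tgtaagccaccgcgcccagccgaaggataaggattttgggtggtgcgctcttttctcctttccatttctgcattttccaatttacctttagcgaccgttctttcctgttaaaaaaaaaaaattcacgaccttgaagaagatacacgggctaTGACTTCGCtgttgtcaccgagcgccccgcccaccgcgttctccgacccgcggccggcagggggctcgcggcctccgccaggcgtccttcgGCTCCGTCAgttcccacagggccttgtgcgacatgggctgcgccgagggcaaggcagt
GCLM held 1 match and TXNRD1 held 2. The letters were found in 5 of 21 list promoters with a window (23.8%), against 13.6% of all promoters and 15.5% of the windows of tested genes, and in 14.4% of windows at least 2-fold higher in K18 and 16.4% of those at least 2-fold lower. The share was 25.0% for integrated stress response targets (5 of 20 windows) and 23.1% for cancer-testis genes (6 of 26), so it was not particular to NRF2 targets. The AP-1 letters TGACTCA can fall within such a match. No match says only that the letters are absent from this window.

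**Figure D3:**
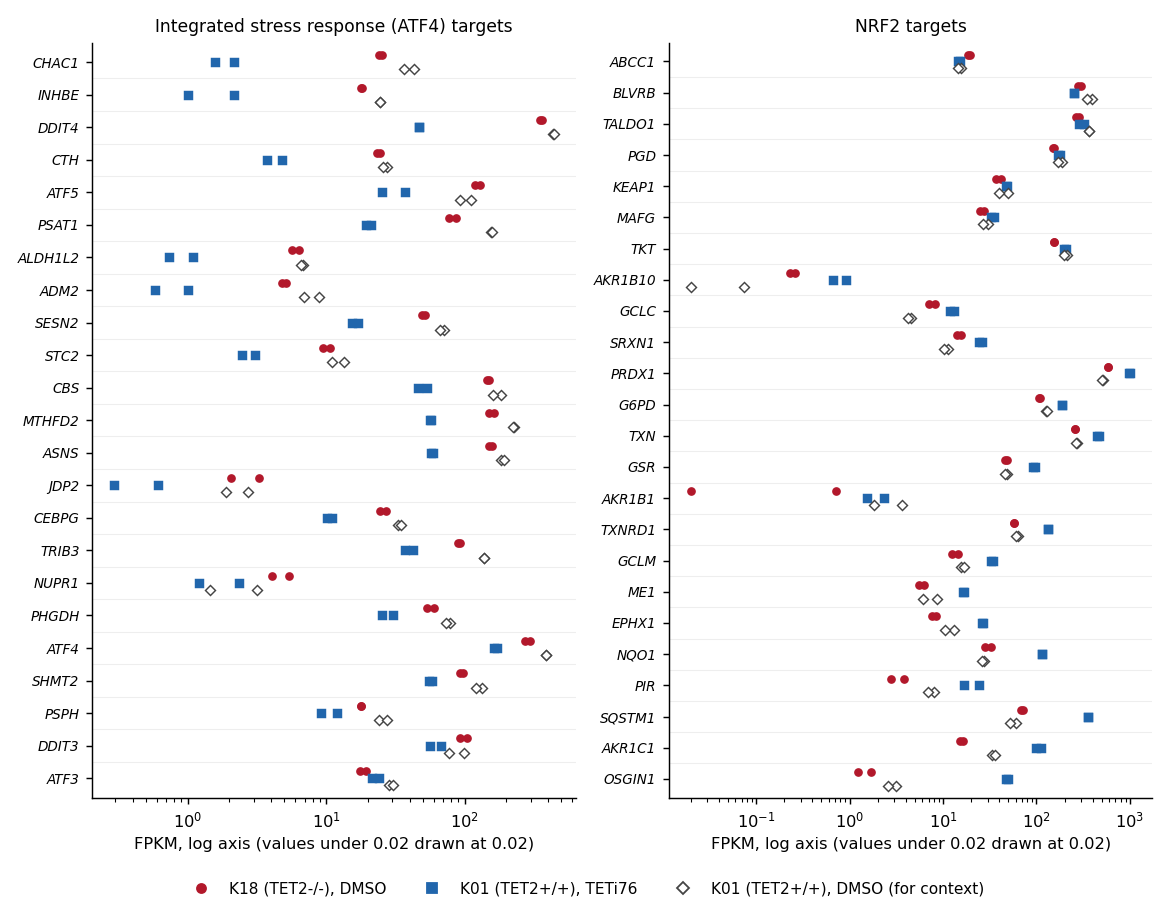
FPKM of every library (log axis; values under 0.02 are drawn at 0.02) for the 23 tested targets of the integrated stress response and the 24 tested NRF2 targets, ordered by difference, with K18 DMSO (red circles) above K01 TETi76 (blue squares) and K01 DMSO (open diamonds). On the left the red circles lie to the right of the blue squares for 22 genes; on the right, for the 18 called members, they lie to the left, and the diamonds mostly go with the red circles.

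Ferritin RNA was lower in K18. Ferritin light chain (FTL), the most abundant gene in the comparison, had 3567 and 3674 FPKM in K18, against 9313 and 9134 FPKM in TETi76-treated K01, and the heavy chain (FTH1), which oxidises iron for storage, had 1141 and 1138 FPKM in K18, against 2193 and 2188 FPKM in TETi76-treated K01. The differences were -1.35 ± 0.04 and -0.94 ± 0.05 (adjusted p = 4.85e-08 and 1.89e-06), and K01 DMSO averaged 2828 and 998 FPKM, below both groups. TFR2, the second transferrin receptor, was higher, with 46.6 and 48.9 FPKM in K18, against 12.8 and 13.8 FPKM in TETi76-treated K01 (difference 1.77). Of 13 tested genes of iron handling, 4 were higher and 3 lower, with a median of 0.15; the higher ones came to 2, 1, 2 and 1 without K18 replicate 1 or 2 or TETi76 replicate 1 or 2. Metallothioneins, which bind zinc and copper, gave 0 called of 3 tested, the other 6 being below the filter. MT2A had 56.0 and 39.1 FPKM in K18, against 66.4 and 59.4 FPKM in TETi76-treated K01, without overlap and with a confidence interval of -0.80 to -0.03 (adjusted p = 0.103). MT1X had 10.3 and 5.85 FPKM in K18, against 13.1 and 4.42 FPKM in TETi76-treated K01, with overlapping groups. MT2A was called without K18 replicate 1 (adjusted p = 0.0281).

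Heat-shock chaperone and proteasome genes that were called were mostly lower in K18. Of 22 heat-shock chaperones, 15 were lower and 2 higher, with a median of -0.30. Leaving out any 1 of the 4 libraries reduced the count of lower chaperones. HSPA1A and HSPA1B, the inducible HSP70 genes, are near-identical, so their split is uncertain; they had 30.6 and 33.5 FPKM in K18, against 92.9 and 96.7 FPKM in TETi76-treated K01 for HSPA1A and 16.9 and 19.7 FPKM in K18, against 61.9 and 67.4 FPKM in TETi76-treated K01 for HSPA1B. BAG3, an HSP70 co-chaperone, had 15.6 and 13.9 FPKM in K18, against 27.9 and 30.2 FPKM in TETi76-treated K01. HSPB1 (HSP27) was higher, with 351 and 363 FPKM in K18, against 201 and 224 FPKM in TETi76-treated K01 (difference 0.75, adjusted p = 1.08e-04). All 31 proteasome subunits tested had a negative difference, from -0.80 to -0.02, and 24 were called lower with a median of -0.35; 15 to 17 were called when any 1 of the 4 libraries was left out, 15 of them without K18 replicate 2. PSMD2, a subunit of the regulatory particle, had 116 and 111 FPKM in K18, against 172 and 165 FPKM in TETi76-treated K01.

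Lysosomal genes gave 18 lower and 1 higher of 28, with a median of -0.39, and 13, 9, 12 and 11 lower without K18 replicate 1 or 2 or TETi76 replicate 1 or 2; the higher gene, ATP6V1F, was called in the first of these alone. CTSL, a cysteine cathepsin, had 59.2 and 61.2 FPKM in K18, against 153 and 166 FPKM in TETi76-treated K01. ATP6V1B2, a subunit of the proton pump, had 38.5 and 42.4 FPKM in K18, against 84.9 and 88.1 FPKM in TETi76-treated K01. Both were lower in K18 in every library (differences -1.39 and -1.08). Over all genes tested, 15.4% were higher and 12.6% lower. Near those shares, the endoplasmic reticulum list had 3 higher and 3 lower of 19, with a median of -0.04. Its largest member was HERPUD1, of the degradation machinery, with 32.9 and 33.4 FPKM in K18, against 14.1 and 12.7 FPKM in TETi76-treated K01 (difference 1.25, adjusted p = 8.25e-05).

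DNA replication genes that were called were higher in K18. Of 31 tested, 18 were higher and 0 lower, with a median of 0.37, and the K01 DMSO mean was nearer K18 for all 18. Fewer were called higher when any 1 of the 4 libraries was left out. MCM7, a subunit of the replicative helicase, had 221 and 229 FPKM in K18, against 71.9 and 73.6 FPKM in TETi76-treated K01, a difference of 1.62 ± 0.06 (adjusted p = 1.76e-07). MCM2, of the same ring, had 60.4 and 61.4 FPKM in K18, against 42.8 and 41.9 FPKM in TETi76-treated K01. TYMS, which makes thymidylate, had 69.8 and 73.3 FPKM in K18, against 39.3 and 36.8 FPKM in TETi76-treated K01, and CDC45, a helicase cofactor, had 131 and 115 FPKM in K18, against 57.9 and 65.0 FPKM in TETi76-treated K01. The difference of MCM2 was 0.52 (adjusted p = 4.58e-04).

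Mitotic genes did not share that order: 8 of 24 were lower in K18 and 3 higher (1 without K18 replicate 1), with a median of -0.14. AURKA, a spindle kinase, had 41.5 and 44.2 FPKM in K18, against 81.4 and 80.4 FPKM in TETi76-treated K01, and CDC20, an activator of the anaphase-promoting complex, had 79.4 and 84.1 FPKM in K18, against 134 and 144 FPKM in TETi76-treated K01. TOP2A, which untangles chromosomes, had 118 and 114 FPKM in K18, against 85.0 and 87.6 FPKM in TETi76-treated K01. In this list the K01 DMSO mean was nearer TETi76-treated K01 for 7 of the 8 lower members. Replication-dependent histones, read here only as far as they enter poly(A) RNA, gave 8 higher and 0 lower of 17 with a median of 0.29; the 8 became 5, 3, 7 and 4 without K18 replicate 1 or 2 or TETi76 replicate 1 or 2.

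Arrest and death genes were mixed, as were all genes tested, with 15.4% higher and 12.6% lower. Of 17 tested CDK inhibitors, GADD45 genes and p53 targets, 2 were higher and 5 lower, with a median of -0.15; the 2 higher came to 1 without K18 replicate 2 or TETi76 replicate 1. CDKN1A (p21) had 3.80 and 3.72 FPKM in K18, against 19.5 and 19.4 FPKM in TETi76-treated K01, and BTG2, an antiproliferative factor, had 4.69 and 5.30 FPKM in K18, against 27.9 and 25.0 FPKM in TETi76-treated K01. BBC3 (PUMA), a BH3-only death protein, went the other way, with 23.2 and 26.0 FPKM in K18, against 9.32 and 8.33 FPKM in TETi76-treated K01. All 3 differed without overlap, by -2.10, -2.20 and 1.38 (adjusted p = 3.33e-06, 4.30e-06 and 9.70e-05). K562 cells have lost functional p53. Of 13 BCL2 family genes, 1 was higher and 3 lower, with a median of -0.01; MCL1, a survival member, had 55.2 and 54.4 FPKM in K18, against 83.4 and 92.3 FPKM in TETi76-treated K01. The higher one, BCL2L1, lost its call without K18 replicate 2 or either TETi76 replicate (adjusted p of 0.147, 0.0674 and 0.0919).

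Called heme synthesis genes were higher in K18, called erythroid regulators higher with 1 exception, and most globins lower. Of 15 tested transcription factors, 9 were higher and 1, BACH1, lower, with a median of 0.50; BACH1 lost its call without replicate 1 of either group (adjusted p of 0.112 and 0.0953). KLF1, the erythroid Krüppel-like factor, had 82.5 and 86.3 FPKM in K18, against 35.0 and 29.3 FPKM in TETi76-treated K01. LMO2, a bridge of the GATA1 and TAL1 complex, had 36.4 and 32.5 FPKM in K18, against 14.8 and 15.4 FPKM in TETi76-treated K01. MYB, a progenitor factor, had 68.6 and 61.4 FPKM in K18, against 43.2 and 41.3 FPKM in TETi76-treated K01. Differences were 1.37, 1.14 and 0.61 (adjusted p = 4.76e-05, 6.97e-05 and 0.00202). The count of higher factors moved either way when 1 library was left out, and GATA1 lost its call without K18 replicate 2. Of 12 heme synthesis genes, 6 were higher and 0 lower, with a median of 0.40. Fewer than these 6 were called without any 1 of the 4 libraries. UROD had 237 and 227 FPKM in K18, against 148 and 139 FPKM in TETi76-treated K01. ALAS2, the first and rate-limiting erythroid step, had 50.8 and 49.5 FPKM in K18, against 36.8 and 37.8 FPKM in TETi76-treated K01.

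Among globins and their chaperone AHSP, 6 of 9 tested were lower in K18 and 2 higher, with a median of -0.38 (HBB and HBM were below the filter). HBE1, embryonic epsilon-globin, had 1233 and 1255 FPKM in K18, against 3912 and 4063 FPKM in TETi76-treated K01 (difference -1.68 ± 0.04, adjusted p = 4.80e-08). HBZ, embryonic zeta-globin, had 787 and 737 FPKM in K18, against 729 and 771 FPKM in TETi76-treated K01, with overlapping values and a confidence interval of -0.24 to 0.29. The fetal genes HBG1 and HBG2 and the alpha genes HBA1 and HBA2 are near-identical pairs whose split is uncertain. HBG1 had 769 and 735 FPKM in K18, against 1217 and 1247 FPKM in TETi76-treated K01, HBG2 1520.2 and 1355 FPKM in K18, against 1792 and 1936 FPKM in TETi76-treated K01, HBA1 237 and 233 FPKM in K18, against 303 and 279 FPKM in TETi76-treated K01, and HBA2 80.1 and 94.0 FPKM in K18, against 154 and 128 FPKM in TETi76-treated K01. HBG2 was not called without any 1 of the 4 libraries (adjusted p of 0.058 to 0.195), nor HBA2 without replicate 1 of either group (0.0606 and 0.0562). The higher ones were HBQ1, with 31.8 and 29.7 FPKM in K18, against 9.66 and 14.7 FPKM in TETi76-treated K01, and AHSP, with 8.48 and 11.7 FPKM in K18, against 1.74 and 0.420 FPKM in TETi76-treated K01; AHSP lost its call without replicate 2 of either group (0.0652 and 0.067). The K01 DMSO mean was nearer TETi76-treated K01 for all 6 lower globins, at 4629 FPKM for HBE1.

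Red cell membrane genes leaned the same way as the globins. Of 21 tested, 8 were lower in K18 and 3 higher, with a median of -0.27, and for all 8 lower ones the K01 DMSO mean was nearer TETi76-treated K01. RHAG, the Rh-associated glycoprotein, had 113 and 103 FPKM in K18, against 219 and 222 FPKM in TETi76-treated K01, and its difference was -1.02. GYPC, glycophorin C, was higher, with 138 and 143 FPKM in K18, against 98.6 and 97.8 FPKM in TETi76-treated K01. RHD and RHCE, a near-identical pair, had differences of -1.24 and -1.49.

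**Figure D4:**
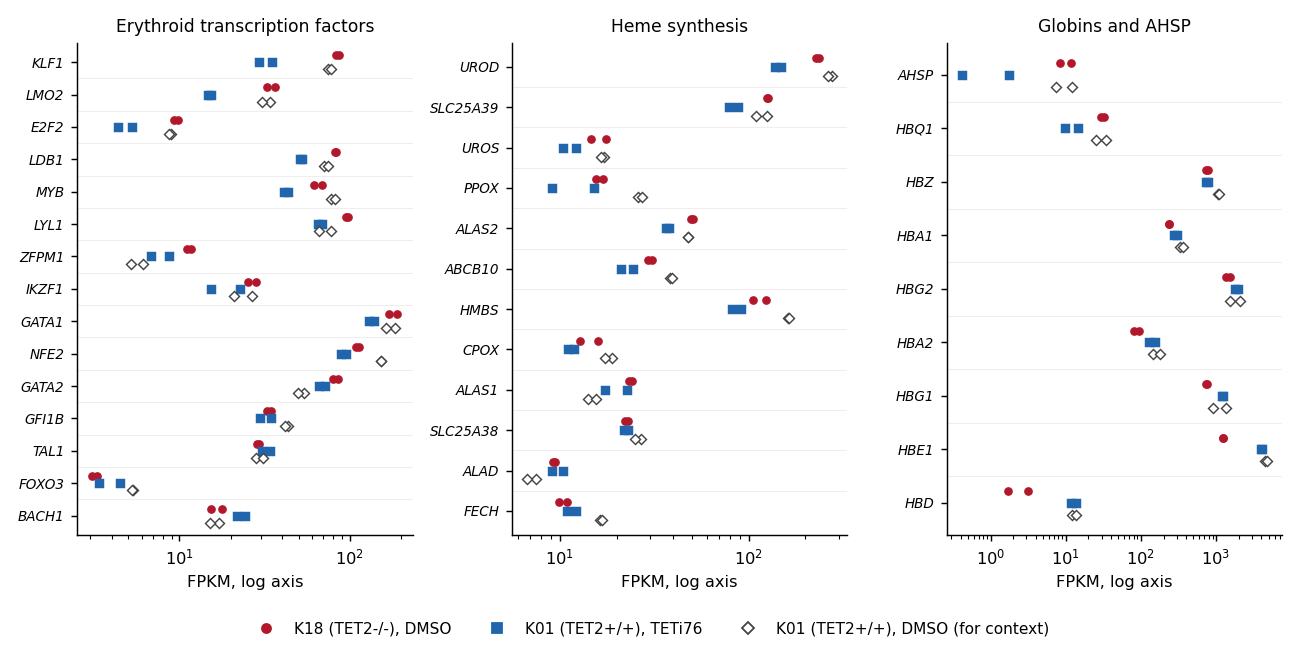
FPKM of every library (log axis) for the tested erythroid transcription factors (15), heme synthesis genes (12) and globins with AHSP (9), ordered by difference, with K18 DMSO (red circles) above K01 TETi76 (blue squares) and K01 DMSO (open diamonds). KLF1 and LMO2 show red and open symbols together to the right of the squares; HBE1 and HBD show the squares and open symbols together to the right of the red circles.

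Markers of other blood and tissue cells were few and uneven. A gene low in K01 can pass the filter through the K18 libraries alone. Passing the filter can thus favour a count of higher genes in these lists and among the granule genes below. Of 15 stem, progenitor and mast cell genes, 5 could be tested; 4 were higher in K18 and 1 lower, and the 4 came to 2, 2, 3 and 2 without K18 replicate 1 or 2 or TETi76 replicate 1 or 2. Beside KIT, the histamine-forming enzyme HDC had 4.22 and 3.998 FPKM in K18, against 0.162 and 0.940 FPKM in TETi76-treated K01 (adjusted p = 0.00262, and 0.0612 with a pseudocount of 0.1); the tryptases TPSAB1 and TPSB2 and the protease CPA3 of mast cells were below the filter. Of 15 megakaryocyte genes, 6 could be tested, with 2 higher and 1 lower; ITGA2B, the platelet integrin alpha-IIb, had 10.3 and 8.73 FPKM in K18, against 1.22 and 1.10 FPKM in TETi76-treated K01, while PF4 was below the filter. RUNX1, the other higher gene, lost its call without K18 replicate 1 or either TETi76 replicate (adjusted p of 0.115, 0.0669 and 0.0597), and GP1BB, the lower one, without either K18 replicate or TETi76 replicate 2 (0.088, 0.0741 and 0.124). Of 15 lymphoid genes, 5 could be tested, and PTPRC was the 1 called. Median differences in these 3 lists were 0.80, 0.22 and 0.06.

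The granule genes called were PRG2 and EPX, which eosinophils express. CLC and PRG3, also eosinophil genes, were below the filter. CLC had 0.569 and 0 FPKM in K18, against 0 and 0 FPKM in TETi76-treated K01. Of 24 myelomonocytic and granule genes, 10 could be tested, with 2 higher, 1 lower and a median of 0.72; the lower one, SPI1, was called without TETi76 replicate 1 but not without any other of the 4 libraries. The summed level of the 24 was 146 and 168 FPKM in K18, against 79.9 and 70.8 FPKM in TETi76-treated K01. PRG2 alone held a large part of the K18 sums and little of the TETi76 sums, so the sums do not describe the list as a whole. CSF1R and PRG3 were listed at 0 in all 4. The higher ones were PRG2, given above, and EPX, eosinophil peroxidase, with 7.85 and 7.76 FPKM in K18, against 0.420 and 0.203 FPKM in TETi76-treated K01 (difference 2.75, adjusted p = 5.88e-05). The neutrophil granule genes MPO, ELANE and PRTN3 split the K18 replicates: MPO had 0.529 and 4.20 FPKM in K18, against 0.745 and 0.761 FPKM in TETi76-treated K01, ELANE 0.170 and 4.01 FPKM in K18, against 0.183 and 0.353 FPKM in TETi76-treated K01, and PRTN3 0.154 and 5.10 FPKM in K18, against 0.661 and 0.479 FPKM in TETi76-treated K01. In all 3, K18 replicate 2 was the highest library and the other 3 libraries were under 1 FPKM, and without K18 replicate 1 these 3 genes were called (adjusted p of 0.0122, 0.0149 and 0.0158) and the list's count of higher genes became 5. What sets that library apart was not tested.

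Of 17 stromal, endothelial and epithelial genes, 8 could be tested; 6 were lower in K18 and 0 higher, with a median of -0.75. The summed level of the 17 was 789.7 and 772 FPKM in K18, against 1771 and 1815 FPKM in TETi76-treated K01. VIM (vimentin), KRT8 and KRT18 held most of each sum, so the sums do not describe the list as a whole. LUM and CDH5 were listed at 0 in all 4. KRT8 and KRT18, partner keratins that K562 cells express, had 114 and 118 FPKM in K18, against 527 and 517 FPKM in TETi76-treated K01 for KRT8 and 149 and 132 FPKM in K18, against 329 and 370.0 FPKM in TETi76-treated K01 for KRT18. EPCAM, an epithelial adhesion protein, had 22.6 and 22.6 FPKM in K18, against 41.4 and 38.0 FPKM in TETi76-treated K01. The defining collagens COL1A1, COL1A2 and COL3A1 and the endothelial CDH5 and KDR were below the filter.

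Cancer-testis and germline genes, which are silenced by promoter methylation in most somatic cells, were mostly higher in K18 where they were called. Of 32 on the list, 18 could be tested; 10 were higher and 2 lower, with a median of 0.64, and for all 10 higher ones the K01 DMSO mean was nearer TETi76-treated K01. A gene silent in K01 can pass the filter through the K18 libraries alone and can then only be higher in K18. The count of higher genes and the median are therefore in part set by the filter. Many of these genes have close paralogs among which reads can be split. Beside the germline genes already named, PAGE1 had 104 and 99.6 FPKM in K18, against 8.58 and 9.11 FPKM in TETi76-treated K01, and MAGEA1 had 67.9 and 64.7 FPKM in K18, against 11.6 and 10.2 FPKM in TETi76-treated K01 (differences 3.38 and 2.50, adjusted p = 1.57e-06 and 1.02e-04). The lower ones were CTAG2 and MAGEA12; MAGEA12 lost its call without replicate 2 of either group (adjusted p of 0.0518 and 0.0516). The list thus held genes near 0 in K18 and genes near 0 in TETi76-treated K01. The promoter of ACTL8, near 0 in all K01 groups, is shown with its CpG sites, the letters TET enzymes act on, in capitals (RefSeq, GRCh38.p14, chr1:17755083-17755382, plus strand).
ACTL8: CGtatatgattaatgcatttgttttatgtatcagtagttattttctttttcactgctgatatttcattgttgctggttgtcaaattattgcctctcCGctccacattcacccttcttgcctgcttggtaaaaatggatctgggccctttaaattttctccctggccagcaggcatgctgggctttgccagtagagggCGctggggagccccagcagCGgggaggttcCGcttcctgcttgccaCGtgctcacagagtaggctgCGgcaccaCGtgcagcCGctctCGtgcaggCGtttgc
It holds 11 CpG sites. The median was 13 over the 26 cancer-testis promoters with a window, 26 over the windows of tested genes, 21 over those at least 2-fold higher in K18 and 23.5 over those at least 2-fold lower. DNA methylation was not measured in these files.

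Immediate early and MAP kinase feedback genes that were called were mostly lower in K18. Of 20 tested out of 26, 13 were lower, 9 by at least 2-fold, and 2 higher, with a median of -0.76. The K01 DMSO mean was nearer K18 for 11 of the 13 lower members and nearer TETi76-treated K01 for 2. EGR1, a growth-factor-induced zinc finger factor, had 10.6 and 8.88 FPKM in K18, against 67.9 and 64.6 FPKM in TETi76-treated K01. Its K01 DMSO mean, 39.6 FPKM, was nearer TETi76-treated K01, unlike most lower members. JUN and FOS, the AP-1 partners, had 9.78 and 8.31 FPKM in K18, against 29.7 and 32.9 FPKM in TETi76-treated K01 for JUN and 1.13 and 1.15 FPKM in K18, against 6.88 and 7.75 FPKM in TETi76-treated K01 for FOS. All 3 were lower in both K18 libraries, with differences of -2.65 ± 0.09, -1.69 ± 0.11 and -1.96 ± 0.16 (adjusted p = 1.76e-07, 8.27e-06 and 3.71e-05). SPRED1, an inhibitor of the pathway, was higher, with 13.5 and 11.002 FPKM in K18, against 5.39 and 4.79 FPKM in TETi76-treated K01. Of the 2 higher genes, JUND lost its call without either K18 replicate or TETi76 replicate 1 (adjusted p of 0.116, 0.116 and 0.172).

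STAT5 signalling genes, downstream of BCR-ABL in K562, gave 5 higher and 2 lower of 13 (median 0.09; 1 lower with scaling to equal sums). STAT5A had 155 and 152 FPKM in K18, against 57.3 and 53.3 FPKM in TETi76-treated K01, and PIM1, a kinase that STAT5 induces, had 198 and 194 FPKM in K18, against 104 and 100.4 FPKM in TETi76-treated K01. SOCS1, a feedback inhibitor, had 4.23 and 4.76 FPKM in K18, against 17.8 and 18.9 FPKM in TETi76-treated K01. The difference was thus 1.46 for STAT5A, 0.93 for PIM1 and -1.82 for SOCS1. CISH, the other lower gene, lost its call without either K18 replicate or TETi76 replicate 1 (adjusted p of 0.113, 0.171 and 0.229). ID proteins and SMAD feedback genes gave 5 lower and 0 higher of 10 (median -0.43), with BAMBI at -1.33 and ID1 at -0.98; 3 were lower without K18 replicate 1.

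Interferon and HLA genes gave 5 higher and 3 lower of 19 tested out of 31 (median -0.29; 3 higher without K18 replicate 2, and 5 lower with quantile scaling). IFITM2 and IFITM3, antiviral membrane proteins of close sequence whose reads may be split, went opposite ways, with 283 and 251 FPKM in K18, against 58.0 and 65.5 FPKM in TETi76-treated K01 for IFITM2 and 84.7 and 102 FPKM in K18, against 198 and 183 FPKM in TETi76-treated K01 for IFITM3. B2M, the light chain of HLA class I, had 344 and 352 FPKM in K18, against 521 and 518 FPKM in TETi76-treated K01. The genes MX1, OAS1, IFIT1 and IFI44L were below the filter. For this list and the next, the shares over all genes tested were 15.4% higher and 12.6% lower. NF-kB and TNF response genes gave 1 higher, TNFAIP3 (1.08), and 2 lower of 13 (median -0.16), with 4 lower under quantile scaling and 1 lower without any 1 of the 4 libraries.

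Called fatty acid synthesis genes were higher in K18, and called cholesterol genes went both ways. Of 15 fatty acid genes, 9 were higher and 0 lower (median 0.48). FADS1, a desaturase, had 192 and 186 FPKM in K18, against 67.4 and 62.9 FPKM in TETi76-treated K01, and FASN, fatty acid synthase, had 104 and 109 FPKM in K18, against 58.3 and 55.0 FPKM in TETi76-treated K01. Their differences were 1.53 and 0.90 (adjusted p = 3.84e-07 and 2.38e-05). Of 26 cholesterol genes, 6 were higher and 4 lower (median 0.11); the 6 became 3 without K18 replicate 2. HMGCS1, which acts early in the pathway, had 51.1 and 46.0 FPKM in K18, against 29.7 and 32.6 FPKM in TETi76-treated K01, and IDI1, the isopentenyl diphosphate isomerase, had 41.2 and 42.7 FPKM in K18, against 76.5 and 59.0 FPKM in TETi76-treated K01.

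Glycolysis and hypoxia genes called were mostly lower in K18, and called genes of respiration mostly higher. Of 24 glycolysis and hypoxia genes, 11 were lower and 3 higher (median -0.17); the 11 became 7 without either K18 replicate or TETi76 replicate 1. PKM, pyruvate kinase, had 206 and 220.3 FPKM in K18, against 492 and 492 FPKM in TETi76-treated K01, whereas VEGFA, the angiogenic factor, had 54.6 and 55.0 FPKM in K18, against 20.8 and 21.3 FPKM in TETi76-treated K01. These went opposite ways, at -1.20 and 1.34. Of 32 nuclear oxidative phosphorylation genes, 11 were higher and 1 lower (2 with quantile scaling; median 0.08), with NDUFV1, of complex I, at 1.03 and COX5B, of complex IV, at 0.72. The lower one, NDUFB3, lost its call without any 1 of the 4 libraries (adjusted p of 0.0579 to 0.139).

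Ribosomal protein genes differed by small amounts. Over all genes tested, 15.4% were higher and 12.6% lower, the background for both lists of this paragraph. Of 51 cytosolic ribosomal protein genes, 5 were higher and 8 lower, with a median of -0.02 and a range of -0.27 to 0.33; quantile scaling gave 15 higher and 4 lower, and scaling to equal sums 9 and 5, so the sign of the balance in this family turned with the scaling. Leaving out 1 of the 4 libraries left 1 or 2 higher and 1 to 4 lower. RPS2 had 2900.3 and 2880.3 FPKM in K18, against 2295 and 2313 FPKM in TETi76-treated K01, and RPLP2 had 2903 and 2747 FPKM in K18, against 3324 and 3496 FPKM in TETi76-treated K01 and lost its call with quantile scaling (adjusted p = 0.21). Among MYC network and ribosome biogenesis genes, 3 were higher and 4 lower of 25 (median -0.02), with 0 and 1 higher without K18 replicate 1 or 2 and 2 lower without TETi76 replicate 1; NOP56, a nucleolar protein, had 96.2 and 93.8 FPKM in K18, against 132 and 121 FPKM in TETi76-treated K01.

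Of 27 cytoskeletal genes, 13 were lower and 3 higher (median -0.18). Beside this and the other lists of this paragraph, 12.6% of all genes tested were lower and 15.4% higher. ANXA1, a calcium-dependent membrane-binding protein, had 87.2 and 86.7 FPKM in K18, against 494 and 527 FPKM in TETi76-treated K01, and S100A6, a calcium-binding protein, had 53.3 and 49.3 FPKM in K18, against 9.34 and 8.22 FPKM in TETi76-treated K01. These were far apart in opposite directions, at -2.54 ± 0.06 and 2.42 ± 0.11 (adjusted p = 4.80e-08 and 1.57e-06). Of 18 histone demethylases tested, most of which share the TET co-substrate, 2 were higher and 3 lower (median -0.03). Fewer were lower without either K18 replicate or TETi76 replicate 1. KDM1A, which uses flavin in place of 2-oxoglutarate, had 99.8 and 108 FPKM in K18, against 59.8 and 60.2 FPKM in TETi76-treated K01. KDM3A, a 2-oxoglutarate-dependent enzyme, had 12.7 and 11.9 FPKM in K18, against 20.4 and 20.9 FPKM in TETi76-treated K01. Of 16 snoRNA host genes and stress long noncoding RNAs, 3 were higher and 4 lower (median -0.19; 1 higher without replicate 1 of either group), with MALAT1 at 299 and 294 FPKM in K18, against 659 and 624 FPKM in TETi76-treated K01.

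**Figure D5:**
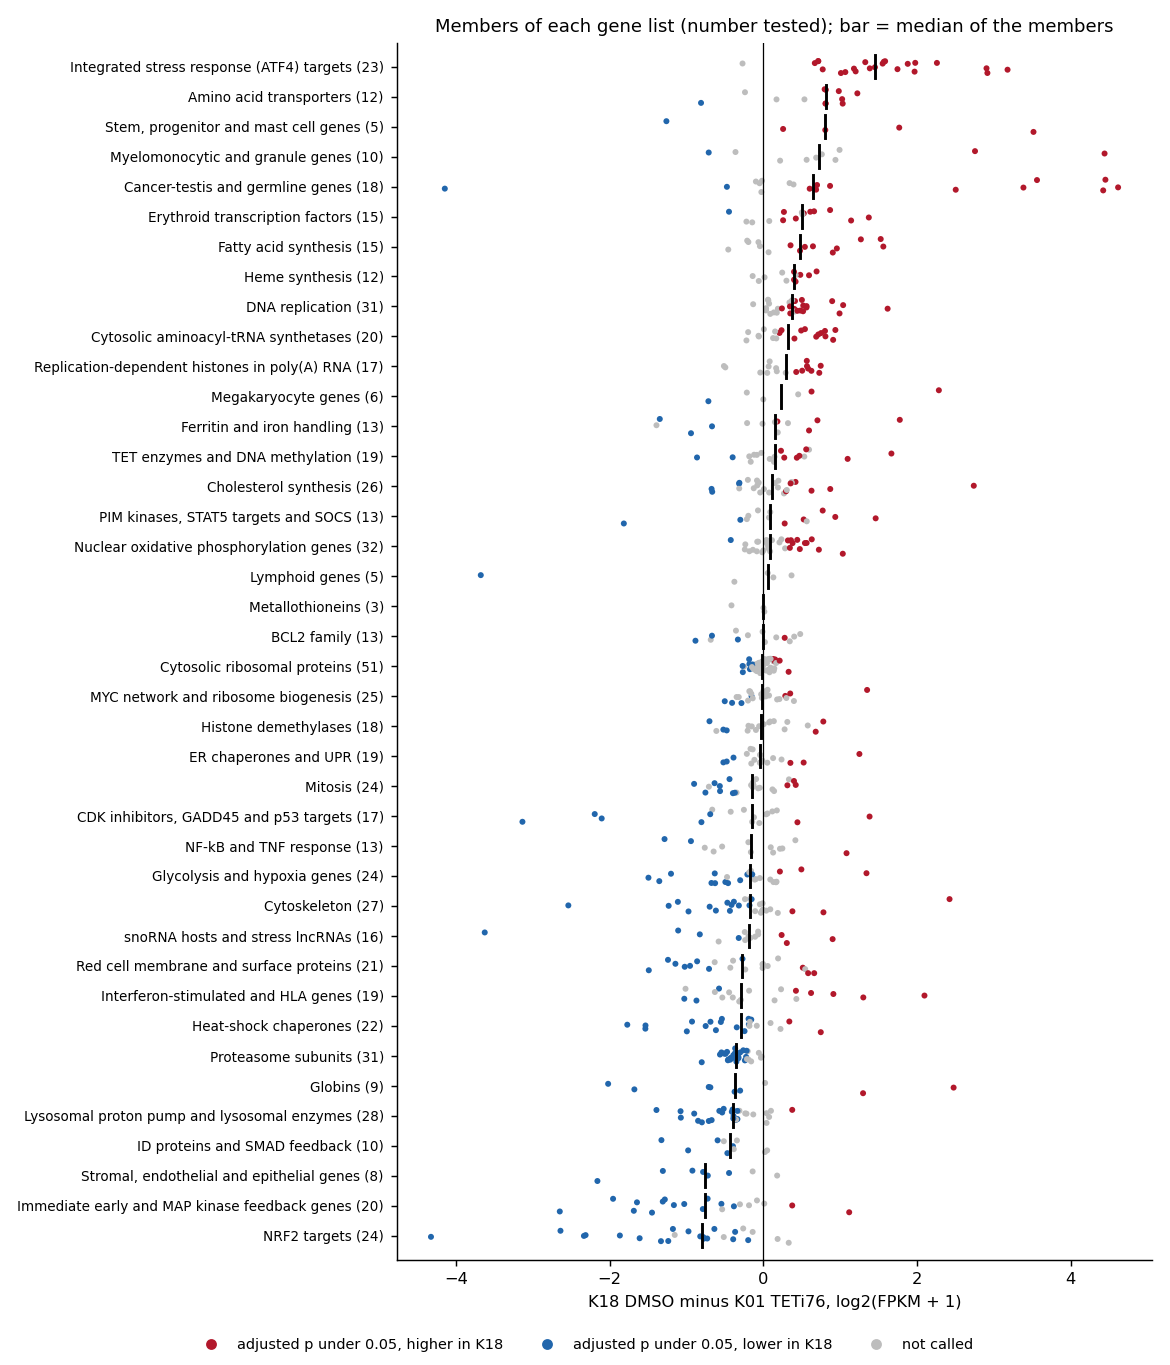
Difference between K18 DMSO and K01 TETi76 (horizontal axis, log2(FPKM + 1)) for every tested member of 40 gene lists, ordered by the median (black bar), with the number tested in brackets. Red points are higher and blue points lower in K18 at an adjusted p under 0.05 and grey points were not called; the integrated stress response (median 1.45) lies at the top and NRF2 targets (median -0.80) at the bottom.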

How the data were processed

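Polyadenylated RNA of 14 libraries was sequenced, and 10 K562 libraries in 5 groups of 2 entered the fit. The authors deposited K562 expression as FPKM, judged from the values although the matrix is named for counts; RPKM cannot be told apart from it. The submitters' processing notes name STAR, hg19, edgeR 3.24.3 and limma 3.38.3, with no table assigned to any of them. Of 26171 rows, 26 number-named and 2275 short-RNA rows were left out, among them MIR6723 and MIR4461, which took 29.6% to 36.4% of a library's FPKM sum; 23870 rows remained and 0 columns were unused.

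Genes reaching 1 FPKM in 2 or more libraries were tested on log2(FPKM + 1) with limma 3.58.1 (R 4.3.3; trend, robust, two-sided, Benjamini-Hochberg threshold 0.05), as a contrast of K18 DMSO minus K01 TETi76 within 1 fit of the 5 groups, so the other 3 groups help to estimate the spread. No count test was run on FPKM, and depth was only estimated. The fit was tested on simulated data. The 40 gene lists and the comparison were chosen with earlier results of these data known. Named genes were, per direction, the 12 called genes with the largest difference, a mean of 10 FPKM or more where higher, and groups that did not overlap; up to 3 called members per list and direction; the TET genes; and the 6 most abundant genes (190 in all, not all printed, after leaving out some that are not reported here). A further 31 genes were chosen after their values were seen. Alternatives were 2 pseudocounts, 2 filters, 3 scalings, 2 library sets, a replicate block and leaving out each of the 4 libraries. Promoter sequences are from RefSeq (GRCh38.p14), matched by symbol. The SIGM5 libraries were not analysed here.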

Additional observations from a re-analysis of the deposited data

How the results depend on the processing

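The count of called genes (3511) was 3370 and 3475 with pseudocounts of 0.1 and 0.5, 3402 without the filter on level, 3586 with the filter over the 4 libraries, 3510, 3641 and 3538 with median-ratio, quantile and equal-sum scaling, 3348 with only the 4 libraries in the fit, 3262 without K01 DMSO and 3383 with the replicate block. Genes of at least 2-fold ran from 845 to 1026 under these settings. Leaving out 1 library gave 2026 to 2358 called, 1138 to 1369 higher, 888 to 1013 lower and 728 to 832 of at least 2-fold; the lone library left in a group is then assumed to vary like the other groups. With the replicate block, 215 of 221 named genes kept their call and direction, 5 lost the call and MT2A gained it (adjusted p = 0.0436). Replicate numbers are shared in the labels only, and deviations of same-numbered K18 and TETi76 libraries correlated at 5e-04 over genes. Signs turned in these named genes: with quantile scaling MT1X (-0.042), RPS27 (0.40, against -0.21 unscaled), EEF1A1 (0.077) and HBZ (-0.027); with equal sums RPS18 (0.015); and over the fits without 1 library MT1X (-0.68 to 0.70), RPS18 (-0.064 to 0.028), HBZ (-0.026 to 0.068), ELANE (-0.11 to 1.99), PRTN3 (-0.44 to 1.96) and MPO (-0.20 to 1.57). The cause was not tested. TET1 lost its call with quantile scaling (adjusted p = 0.0595), with only the 4 libraries (0.075) and without K01 DMSO (0.0572). Depth limits genes near 1 FPKM, where a few reads set the value.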

Other observations

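Some related cytoskeletal genes stood on opposite sides of the comparison, although most called members of that list were lower in K18. TPM1 and TUBB were the only tropomyosin and tubulin genes of the cytoskeletal list that were called higher. TPM3, TUBA1B, TUBB2A, TUBB3 and TUBB6 were called lower, as were the lower genes given here. Of the tropomyosins, which coat actin filaments, TPM1 had 25.2 and 27.4 FPKM in K18, against 15.4 and 14.4 FPKM in TETi76-treated K01, and TPM4 had 37.7 and 37.2 FPKM in K18, against 81.9 and 82.5 FPKM in TETi76-treated K01. Their differences were 0.78 and -1.11 (adjusted p = 3.10e-04 and 7.75e-06), with TPM1 higher and TPM4 lower in both K18 libraries. TUBB, a beta-tubulin, had 878 and 855 FPKM in K18, against 669.8 and 665 FPKM in TETi76-treated K01, and TUBA4A, an alpha-tubulin, had 13.5 and 13.1 FPKM in K18, against 31.9 and 33.5 FPKM in TETi76-treated K01. The tubulins differed by 0.38 and -1.23, again without overlap. VIM (vimentin), the intermediate filament protein of mesenchymal and blood cells, had 365 and 362 FPKM in K18, against 687 and 695 FPKM in TETi76-treated K01. Among lipid genes, ACACB, the acetyl-CoA carboxylase of the mitochondrial surface, had 2.90 and 2.94 FPKM in K18, against 0.365 and 0.296 FPKM in TETi76-treated K01. ACSL4, which activates polyunsaturated fatty acids, had 23.4 and 19.4 FPKM in K18, against 8.29 and 8.27 FPKM in TETi76-treated K01. Both were higher in both K18 libraries, by 1.56 and 1.27 (adjusted p = 0.00129 and 1.76e-04).

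A second inhibitor-treated group gives values beside those above. K01 given 12.5 µM TETi76 with 100 µM ascorbate can be set against the same K18 libraries, so the 2 sets of differences share K18 and are given side by side with no test of likeness. Against TETi76 with ascorbate, the K18 difference was 2.71 for CHAC1, beside 3.18 against TETi76 alone. For DDIT4 it was 2.43 beside 2.90. SQSTM1 stood at -3.02 beside -2.34, and NQO1 at -2.10 beside -1.87. In the erythroid lists it was 2.31 beside 1.37 for KLF1 and -1.43 beside -1.68 for HBE1. HBQ1, theta-globin, stood at 3.18 beside 1.30. The inducible HSP70 gene HSPA1A, with a near-identical copy, stood at -2.48 beside -1.54, and CDKN1A at -3.11 beside -2.10. CCL2, a chemokine, stood at 0.29 beside -1.29; its levels were 0.450 and 0.787 FPKM in K18, against 2.42 and 3.51 FPKM in TETi76-treated K01, it was listed at 0 in K01 DMSO, and its call against TETi76 alone (adjusted p = 0.0147) was lost with a pseudocount of 0.1 (0.195) and without K18 replicate 1 or TETi76 replicate 2 (0.0934 and 0.0959).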
